A study of Mus musculus with 8 samples.

Results

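This is a description of 34 genes for regional transcription factors, most of them known from the hypothalamus, eye field, cortex, thalamus, pretectum, tectum or dorsal midbrain rather than from dopaminergic neurons, in and around the embryonic mouse ventral midbrain. The genes were chosen by name, with earlier results of these data known, from the 23912 gene symbols that the array probes could be given. Of the 42 probes that the authors' annotated table gives to these 34 genes, the brightest per gene over both channels and all 8 arrays was used. That brightness was the only measured value in the choice of probes, and it ran from a log2 mean of 6.53 for Barhl2 to 14.41 for Irx1. For 29 genes the table held 1 probe. Where it held more, the brightest and the next stood at 11.45 and 7.94 for Lhx1 and at 6.84 and 6.50 for Foxp2.

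All embryos were Pitx3(Gfp/+) mice at day E14.5, carrying Gfp at 1 copy of the Pitx3 locus, so the Gfp-negative reference cells carried the same allele as the sorted cells. Ventral midbrains were cut into a rostral and a caudal part, dissociated with papain, and the Gfp-positive cells were collected on either of 2 models of cell sorter, per the labels, which do not say which pools went through which. There were 4 rostral and 4 caudal pools of 5 to 7 embryos each, with litters spread over the pools. Each Agilent array had 2 colours: Cy3 for the RNA of 1 pool and Cy5 for a common reference, a mixture of the Gfp-negative cells of those specimens. Thus a log2 ratio here is the level in sorted cells over the level in the reference. A value of -1 is 2-fold lower in the sorted cells. Pitx3 is a homeobox gene which in the brain is known from midbrain dopaminergic neurons, and the gate holds any cell that makes Gfp.

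Regional transcription factors are switched on in blocks of the neural tube and fix which neurons each block makes. Rax, Vax, Hmx and Sim factors pattern the eye field and hypothalamus in front of the midbrain. LIM, Iroquois and Pou4f factors mark neurons of the diencephalon, tectum and red nucleus beside the dopaminergic field. Msx1 is known as a factor of the midbrain floor plate from which dopaminergic neurons arise.

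The sorted pools carried their defining markers. The mean log2 ratio of 6 dopaminergic markers lay between 3.85 and 4.05 in the rostral pools and between 3.92 and 4.02 in the caudal pools. That of 6 progenitor and radial glia markers lay between -3.50 and -3.02 over all 8 pools. Between 62.5% and 70.4% of the 55681 probes were well above background in the sorted-cell channel and 54.0% to 63.5% in the reference channel. All arrays lay on 1 slide in 2 rows, with 2 pools of each part in each row. Array number limits the precision, and p-values measure the spread between pools.

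Against the reference, 28 of the 34 genes were lower in the sorted cells, 2 were higher, 2 did not pass the test and 2 were too dim to be tested. These are calls at a Benjamini-Hochberg adjusted p below 0.05 in limma over 18558 genes, of which 71.5% were called, 36.9% lower and 34.6% higher. Of the 28, 25 were at least 2-fold lower, against 9.74% of all genes tested, and 13 were at least 8-fold lower, against 1.15% of all genes. The median log2 ratio of the 32 tested members was -2.77, and that of all genes tested was 0.00. All 8 pools lay below the reference for 28 members and all 8 above it for 2. Since the genes were chosen with such results in view, these counts describe the list. As 1 control sample, the reference adds none of its own spread to the test. It had the same dye on every array, so a dye effect is part of each ratio. In a mixed pool of sorted cells, fewer cells with a transcript and less transcript per cell cannot be told apart.

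**Figure D1:**
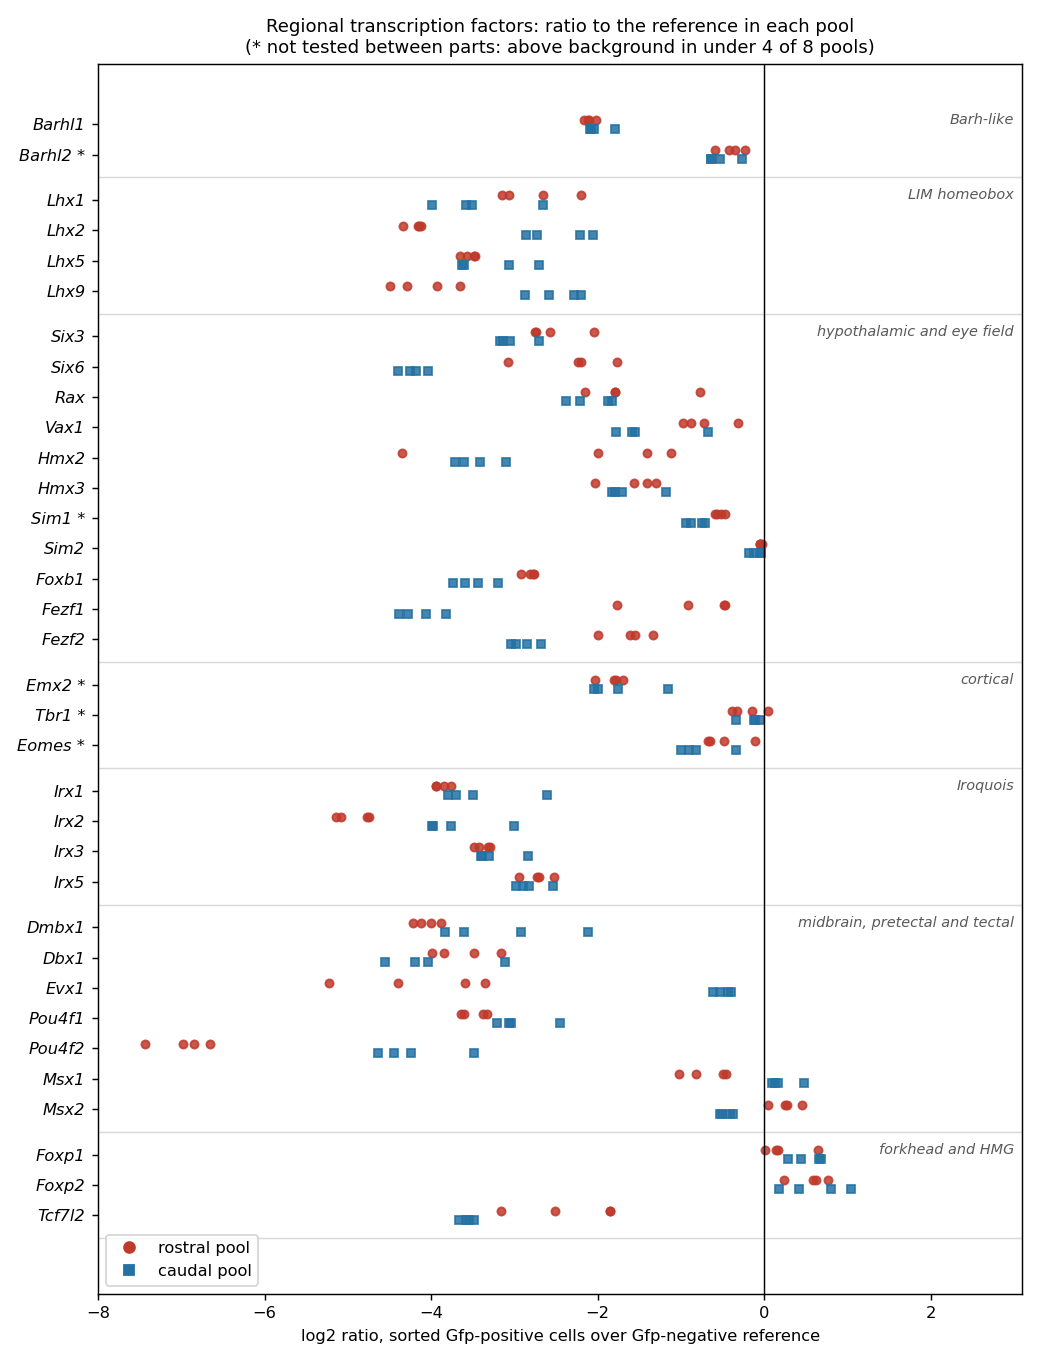
Log2 ratio of sorted Gfp-positive cells over the Gfp-negative reference for all 34 genes, in each of 4 rostral pools (circles) and 4 caudal pools (squares), grouped by territory or family. Most genes lie left of 0 in every pool, Foxp1 and Foxp2 lie right of 0, and the rostral and caudal pools of Evx1, Fezf1 and Pou4f2 stand far apart.

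Between the rostral and the caudal pools, 12 of the 29 members that could be tested differed, 6 with the rostral and 6 with the caudal pools higher. Over all 18098 genes tested the calls were 6.29% (3.51% toward rostral and 2.78% toward caudal pools). The 6 higher in rostral pools were Fezf1, Six6, Fezf2, Tcf7l2, Msx2 and Foxb1, and the 6 higher in caudal pools were Evx1, Pou4f2, Lhx2, Lhx9, Irx2 and Msx1. Of the 12, 9 differed by at least 2-fold, against 1.7% of all genes. The 4 pools of 1 part lay wholly above the 4 of the other for 14 members, 6 with rostral and 8 with caudal above, against 12.5% of all genes. The other 17 tested members, from -0.94 (Dmbx1) to 1.24 (Hmx2) in log2 rostral minus caudal, did not pass. A test needed a signal well above background in at least 4 of the 8 sorted pools, which Barhl2, Sim1, Emx2, Tbr1 and Eomes did not reach. Six6 passed through its 4 rostral pools alone, so its count among those tested is no support for a difference. The same holds for Fezf1 and Fezf2, which had only 1 caudal pool above background and reached 4 pools through the rostral part.

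**Figure D2:**
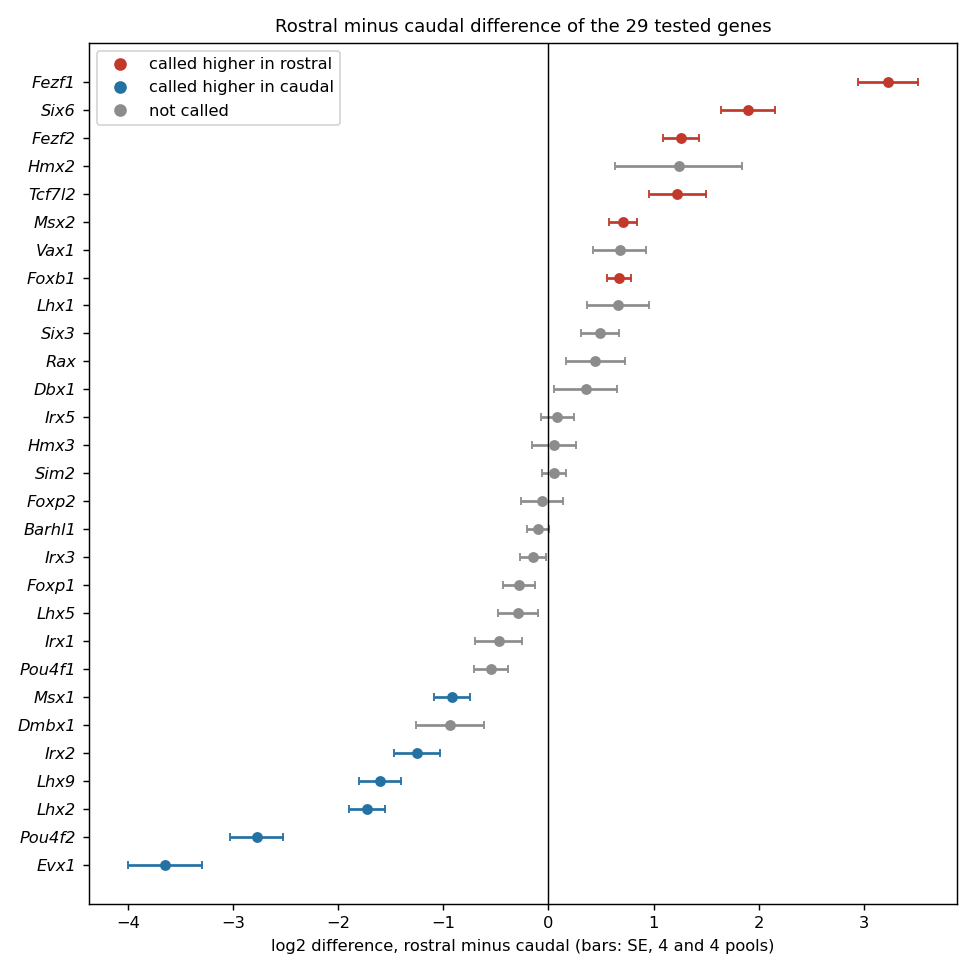
Difference in log2 ratio, rostral minus caudal, of the 29 tested members (points) with the standard error of the limma fit (bars), coloured by call at an adjusted p below 0.05. The range runs from -3.65 for Evx1 to 3.23 for Fezf1, and 17 members did not pass the test.

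The hypothalamic and eye-field genes leaned to the rostral pools. Of 11 members, 10 could be tested, 4 were called higher in rostral pools and 0 in caudal pools, and all 10 estimates were above 0, with a median of 0.67 against 0.01 over all genes tested. Six6, Fezf1 and Fezf2, among the 4 called, could be tested only through their rostral pools, so their counts are no support for a difference. The mean ratio was below 0 in the rostral pools too for each of the 11.

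Fezf1 encodes a zinc-finger repressor of the early forebrain and olfactory system. Its log2 ratio was -0.47, -1.77, -0.49 and -0.91 in rostral pools 1 to 4 and -4.39, -3.83, -4.27 and -4.07 in caudal pools 1 to 4. The parts did not overlap, and even the lowest rostral pool, pool 2, lay above every caudal pool. The difference was 9.38-fold (log2 3.23, SE 0.28, limma adjusted p = 0.000592). Its probe was well above background in all 4 rostral pools but in 1 of 4 caudal pools, and the difference was 6.20 in the scanner's processed signals, so the size at the caudal end is uncertain.

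Fezf2, its close relative and known for subcortical projection neurons of the cortex, followed the same order at a smaller size. It stood at -1.61, -2.0, -1.34 and -1.55 in rostral pools 1 to 4 and at -2.98, -3.04, -2.68 and -2.84 in caudal pools 1 to 4. The parts were separate and the spread within each was small. The difference was 2.40-fold (log2 1.26, SE 0.17, adjusted p = 0.00317), and 3.22 on the log2 scale in the processed signals. As for Fezf1, 1 of 4 caudal pools was well above background.

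Six6, a homeobox gene of the eye field and pituitary, was at -2.23, -3.08, -2.21 and -1.77 in rostral pools 1 to 4. In caudal pools 1 to 4 it was at -4.26, -4.19, -4.40 and -4.03, where the probe was not well above background in any of the 4. In the sorted-cell channel its rostral level was at least 3.76-fold higher (channel means of 8.40 and 6.39 on the log2 scale). The fitted difference of the ratios was 3.72-fold (log2 1.90, SE 0.25, adjusted p = 0.00312), slightly below that bound, and the reference channel of the rostral arrays was 0.11 higher, which the bound leaves out. Here "at least" sets the rostral mean against, per caudal array, the higher of the probe's own signal and the lowest signal well above background, a bound that is open to dye bias. In the processed signals the fitted difference was 4.79.

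Foxb1, a forkhead gene of the mammillary region, had rostral values close to each other. They were -2.92, -2.82, -2.77 and -2.78 in pools 1 to 4, and the caudal values were -3.44, -3.20, -3.73 and -3.59. The parts did not overlap, and rostral pools were 1.59-fold higher (log2 0.67, SE 0.12, adjusted p = 0.00984). Its probe was above background in all pools of both parts, and every rostral pool still lay below the reference.

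The 6 tested genes of this group that did not pass were Six3 (0.49, SE 0.18), Rax (0.44, SE 0.28), Vax1 (0.68, SE 0.25), Hmx2 (1.24, SE 0.60), Hmx3 (0.05, SE 0.21) and Sim2 (0.05, SE 0.12), as log2 rostral minus caudal. Hmx2, which with its neighbour Hmx3 is needed for hypothalamic neurons, had the widest spread of the members. It stood at -1.12, -4.35, -2.0 and -1.41 in rostral pools 1 to 4, against -3.72, -3.60, -3.41 and -3.10 in caudal pools 1 to 4. Rostral pool 2 alone lay below every caudal pool, while the other 3 rostral pools lay above them all. Without that pool the difference was 1.95 (adjusted p = 0.00568), and with it the adjusted p was 0.315. Vax1, a gene of the ventral forebrain and optic stalk, did not pass with the table's probe (adjusted p = 0.174), but did without caudal pool 4 (0.92, adjusted p = 0.035). A slightly dimmer probe of Vax1, named by accession, gave 1.02 with all 4 rostral pools above the caudal pools (adjusted p = 0.00752 in a fit over probes). That probe was above background in 4 rostral pools and 1 caudal pool, so it was tested only through the rostral part. Sim1, a factor of the paraventricular hypothalamus, was above background in 2 rostral and 0 caudal pools and could not be tested between the parts.

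The markers of hypothalamic cell types moved the same way. Of 7 such markers, 6 could be tested, 3 were higher in rostral pools (Nkx2-1, Pmch and Nr5a1) and 1 in caudal pools (Sst), and Otp was not above background in any pool. Nkx2-1, the selector gene of the ventral hypothalamus, had a difference of 2.31 (SE 0.13, adjusted p = 0.000106), and Pmch, the precursor of melanin-concentrating hormone, one of 3.48 (SE 0.34, adjusted p = 0.000809). Pmch was well above background in 1 of 4 caudal pools, so the size of its difference is uncertain. It could be tested only through its rostral pools, so its count is no support for a difference. The mean ratio of the 6 lay between -1.92 and -1.27 in rostral pools and between -3.02 and -2.53 in caudal pools. Rostral pool 2 was the lowest of its part for this mean, and it was also the lowest of its part for 9 of the 11 hypothalamic and eye-field members. How much of the members' difference goes with such cells was not tested.

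**Figure D3:**
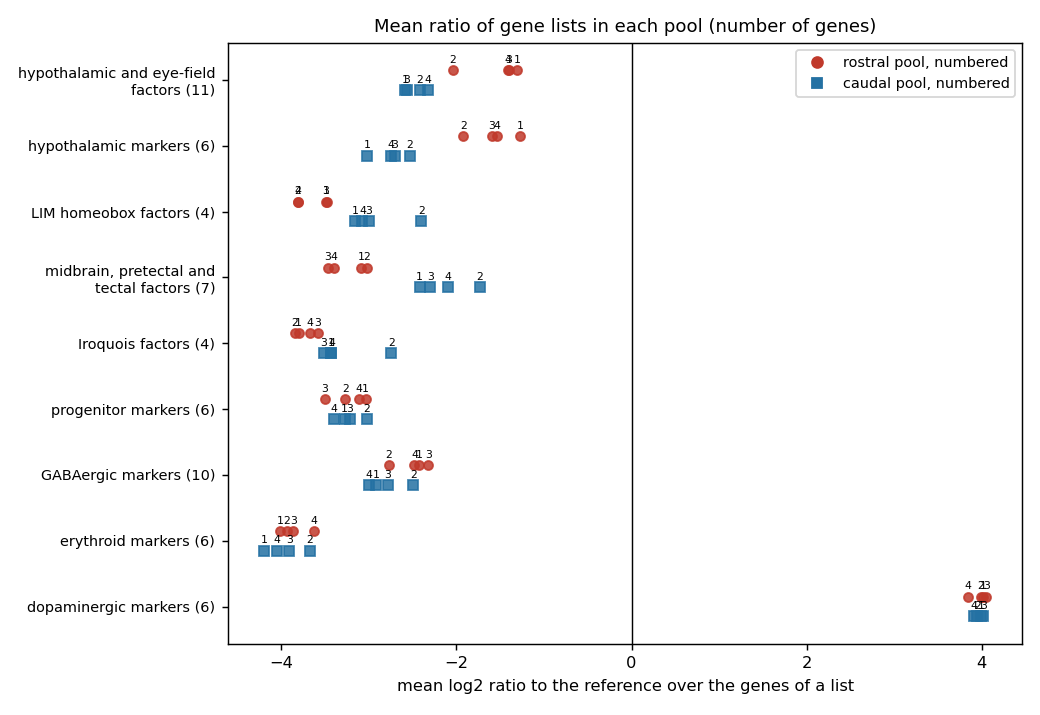
Mean log2 ratio to the reference over the genes of each list (number of genes in brackets) in every rostral pool (circles) and caudal pool (squares), with pool numbers printed above the points. Hypothalamic members and hypothalamic markers are higher in rostral pools, LIM and midbrain members in caudal pools, and the dopaminergic markers lie between 3.85 and 4.05 in every pool.

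The genes of the midbrain, pretectum and tectum went mostly the other way. Of 7 members, all tested, 3 were higher in caudal pools (Evx1, Pou4f2 and Msx1), 1 was higher in rostral pools (Msx2) and 3 did not pass, with a median difference of -0.92.

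Evx1 encodes an even-skipped homeodomain factor known from commissural interneurons. It was at -3.36, -3.59, -5.22 and -4.40 in rostral pools 1 to 4 and at -0.53, -0.61, -0.43 and -0.39 in caudal pools 1 to 4. Caudal pools were tight (-0.49 ± 0.10, SD, n = 4) and rostral pools were scattered (-4.14 ± 0.85, SD, n = 4), yet no pools crossed. Caudal pools were 12.5-fold higher (log2 rostral minus caudal -3.65, SE 0.35, adjusted p = 0.000795). The probe was above background in all 8 pools.

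The promoters of the members with the largest difference in each direction are printed because these are the DNA stretches in front of the transcripts that differed most. They come from RefSeq (GRCm38.p6), cover the 250 bases before the start, read 5′ to 3′ on the strand of the gene, and have CpG dinucleotides in capitals. Fezf1 (chr6:23248265-23248514, minus strand) held 12 CpG and 47.6% G or C, and Evx1 (chr6:52313248-52313497, plus strand) held 10 CpG and 49.6% G or C.
Fezf1: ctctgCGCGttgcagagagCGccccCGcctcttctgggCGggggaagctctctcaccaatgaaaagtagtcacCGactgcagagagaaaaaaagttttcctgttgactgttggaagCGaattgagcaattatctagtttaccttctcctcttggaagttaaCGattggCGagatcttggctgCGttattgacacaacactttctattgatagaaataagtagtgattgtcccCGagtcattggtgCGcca
Evx1: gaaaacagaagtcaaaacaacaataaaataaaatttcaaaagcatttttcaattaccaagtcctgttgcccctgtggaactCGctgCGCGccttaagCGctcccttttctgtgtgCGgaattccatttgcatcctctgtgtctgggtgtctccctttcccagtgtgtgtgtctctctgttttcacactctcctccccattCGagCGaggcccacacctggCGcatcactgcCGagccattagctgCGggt
Neither window held TAATTA, the core that many homeodomain factors bind, or TAATCC, the core that Otx factors bind, on either strand.

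Pou4f2, a Pou-homeodomain gene known from retinal ganglion cells, was the member farthest below the reference. It stood at -6.98, -6.65, -7.43 and -6.85 in rostral pools 1 to 4 and at -4.64, -3.48, -4.44 and -4.25 in caudal pools 1 to 4. The mean over both parts was -5.59 (SE 0.13), and within the sorted cells the caudal pools were 6.85-fold higher than the rostral pools (log2 -2.78, SE 0.25, adjusted p = 0.000662). Pou4f1, its relative of the red nucleus and habenula, had caudal pools wholly above rostral pools but a difference of -0.54 (SE 0.16) that did not pass (adjusted p = 0.0849).

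Msx1 and Msx2, relatives that respond to BMP signals, ran in opposite directions and crossed the reference. Msx1 was at -0.45, -0.50, -0.81 and -1.02 in rostral pools 1 to 4 and at 0.10, 0.17, 0.13 and 0.48 in caudal pools 1 to 4. Every rostral pool lay below the reference and every caudal pool above it. The caudal pools were 1.89-fold higher (log2 rostral minus caudal -0.92, SE 0.17, adjusted p = 0.0123).

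Msx2 had the mirror pattern. It was at 0.27, 0.24, 0.45 and 0.04 in rostral pools 1 to 4 and at -0.50, -0.53, -0.42 and -0.37 in caudal pools 1 to 4. Rostral pools were 1.64-fold higher (log2 0.71, SE 0.14, adjusted p = 0.0143). The side of the reference depends on the scaling for both genes: with median centring of the arrays the mean ratio over both parts was 0.09 for Msx1 and 0.21 for Msx2, in place of -0.24 and -0.10. The difference between the parts kept its sign in each alternative. With replicate number as a block in limma it missed the threshold for both (adjusted p = 0.0586 for Msx1 and 0.0612 for Msx2). The labels do not say that the numbers pair the pools.

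The promoters of this pair are shown because the genes are relatives whose transcripts went opposite ways, with CpG in capitals as above. Msx1 (chr5:37824586-37824835, minus strand) held 20 CpG and 68.0% G or C, and Msx2 (chr13:53472781-53473030, minus strand) held 16 CpG and 61.6% G or C.
Msx1: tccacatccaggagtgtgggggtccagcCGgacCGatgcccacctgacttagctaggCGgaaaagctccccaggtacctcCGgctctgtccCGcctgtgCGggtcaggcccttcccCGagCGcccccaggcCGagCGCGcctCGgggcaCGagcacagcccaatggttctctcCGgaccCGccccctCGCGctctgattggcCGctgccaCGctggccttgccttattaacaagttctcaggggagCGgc
Msx2: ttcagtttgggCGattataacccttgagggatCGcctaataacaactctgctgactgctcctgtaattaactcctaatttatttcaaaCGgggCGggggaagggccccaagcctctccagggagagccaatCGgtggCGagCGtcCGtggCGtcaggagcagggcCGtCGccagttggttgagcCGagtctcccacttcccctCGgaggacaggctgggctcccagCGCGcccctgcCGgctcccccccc
The Msx2 window held 1 TAATTA, which begins 187 bases before the start, and the Msx1 window held none.

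Over the list, 33 promoters of 27 members matched the RefSeq promoter table. TAATTA, which reads the same on both strands, lay in 3 of the 33 (9.09%), against 4.84% of all 32851 promoters. TAATCC, searched on both strands and sharing its first letters TAAT with the other motif, lay in 3 (9.09%), against 6.25%. The member promoters had a median of 14 CpG and 61.2% G or C, against 6 and 52.4% for all promoters. No match says only that these letters are not in the window.

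Dmbx1 and Dbx1 complete this group. Dmbx1, a paired-type gene of the early midbrain and caudal diencephalon, had caudal pools wholly above rostral pools, with rostral values of -4.22 to -3.88. Its caudal values were -3.61, -2.12, -3.84 and -2.92 in pools 1 to 4, so that caudal pools 2 and 4 stood apart from the others, and the difference of -0.94 (SE 0.32) did not pass (adjusted p = 0.138). Dbx1, which defines a progenitor domain that gives rise to interneurons, was at -3.80 (SE 0.15) against the reference, and the parts overlapped (0.35, SE 0.30, adjusted p = 0.62).

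The LIM homeobox members divided into a pair that differed and a pair that did not pass. Lhx2, which is needed for eye and forebrain growth, was at -4.15, -4.16, -4.34 and -4.12 in rostral pools 1 to 4 and at -2.73, -2.06, -2.21 and -2.86 in caudal pools 1 to 4. Caudal pools were 3.31-fold higher (log2 rostral minus caudal -1.73, SE 0.17, adjusted p = 0.000809) and did not overlap the rostral pools.

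Lhx9, the closest relative of Lhx2 and a gene of thalamic and tectal neurons, was at -3.66, -4.29, -3.93 and -4.49 in rostral pools 1 to 4 and at -2.29, -2.20, -2.59 and -2.87 in caudal pools 1 to 4. Caudal pools were 3.04-fold higher (log2 -1.61, SE 0.20, adjusted p = 0.0024). A second, dimmer probe, which stood clear of background in 1 rostral and 3 caudal pools, gave -0.42, and the mean over probes was -1.01. Lhx1 and Lhx5, relatives of neurons in the diencephalon and midbrain, gave 0.66 (SE 0.29, adjusted p = 0.26) and -0.29 (SE 0.19, adjusted p = 0.48), with ratios to the reference of -3.10 and -3.40.

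Of the Iroquois genes, which subdivide the neural plate, Irx2 differed between the parts. It was at -5.14, -5.09, -4.74 and -4.77 in rostral pools 1 to 4 and at -3.76, -3.00, -3.98 and -3.99 in caudal pools 1 to 4. Caudal pools were 2.38-fold higher (log2 -1.25, SE 0.22, adjusted p = 0.00971), and the difference was -1.74 within the first row of the slide and -0.77 within the second. Its mean ratio was -4.31 (SE 0.11). Irx1 (-3.64), Irx3 (-3.31) and Irx5 (-2.77) lay below the reference in every pool, and between the parts they gave -0.47, -0.15 and 0.08, none of which passed. The difference of Irx2 from its relatives was not tested.

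Progenitor and GABAergic markers are given beside the caudal group, since cells of the neighbouring midbrain could carry its genes. The mean of 6 progenitor markers was -3.50 to -3.04 in rostral and -3.40 to -3.02 in caudal pools, so the parts overlapped. Of the 6, Vim, an intermediate filament gene of radial glia, was higher in caudal pools (-0.63, SE 0.11, adjusted p = 0.0118), and Pax6 was not above background in any pool. The mean of 10 GABAergic markers was -2.77 to -2.32 in rostral and -3.00 to -2.49 in caudal pools. Of those 10, 3 were higher in rostral pools (Gad2, Dlx1 and Dlx2) and 2 in caudal pools (Tal1 and Tal2). Tal1 and Tal2 are selector genes of midbrain GABAergic neurons. Dlx1 could be tested through its 4 rostral pools alone, so its count is no support for a difference. Of 5 glutamatergic markers, 4 could be tested, 1 was higher in rostral pools and 0 in caudal pools, with means of -0.32 to 0.10 and -0.75 to -0.64, and Slc17a7 was not above background in any pool. Their part in the members' difference was not tested.

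Foxp1 and Foxp2, forkhead repressors found in many kinds of neuron, were the 2 members above the reference in every pool. Foxp1 was at 0.14, 0.16, 0.65 and 0.00 in rostral pools 1 to 4 and at 0.28, 0.66, 0.44 and 0.68 in caudal pools 1 to 4, with a mean of 0.38 (SE 0.08, adjusted p = 0.00132). The parts overlapped, and the difference of -0.28 (SE 0.15) did not pass (adjusted p = 0.374). The 5 probes of Foxp1 disagreed in size, from -0.06 to 0.79 in mean ratio, and the mean over the 4 probes of the table, 0.17, did not pass (adjusted p = 0.0697).

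Foxp2 was at 0.23, 0.59, 0.63 and 0.76 in rostral pools 1 to 4 and at 0.17, 1.05, 0.42 and 0.81 in caudal pools 1 to 4. The reference was not well above background on any array, so the sorted cells were at least 1.46-fold higher (fitted log2 ratio 0.58, SE 0.10, adjusted p = 0.000478). A far brighter probe, named by its accession and not by the authors' table, gave a ratio of 1.55 (SE 0.05, adjusted p = 2.47e-09) and a rostral minus caudal difference of -0.40 (SE 0.10, adjusted p = 0.0385), while the probe of the table gave -0.06.

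Tcf7l2, an HMG-box effector of Wnt signalling that marks the thalamus, was lower than the reference and less so in rostral pools. It was at -1.85, -2.51, -1.85 and -3.16 in rostral pools 1 to 4 and at -3.54, -3.49, -3.59 and -3.66 in caudal pools 1 to 4. Rostral pools were scattered but did not reach the caudal values (2.34-fold, log2 1.23, SE 0.27, adjusted p = 0.0269). Leaving out any pool other than rostral pool 4 gave differences of 1.06 to 1.28, of about the same size, with adjusted p-values of 0.0503 to 0.0735, so the call was lost. The other 2 probes of the gene gave 0.48 and -0.01, and the mean over probes was 0.56 (adjusted p = 0.073).

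Among the remaining members, Barhl1, a gene of cerebellar and diencephalic neurons, had a ratio to the reference of -2.05 (SE 0.05), and the parts overlapped. A brighter probe named by accession gave a ratio of -3.49. Barhl2 was not well above background in either channel on any array. The 3 cortical genes were dim with the table's probes. Emx2, of the dorsal telencephalon, was above background in 3 of 8 sorted pools and on all 8 arrays in the reference, with a ratio of -1.78 (SE 0.10). Eomes, of intermediate progenitors, was above background in 3 sorted pools, with a ratio of -0.62 (SE 0.09). A slightly brighter probe of Eomes, named by accession, was above background in 3 rostral and 0 caudal pools. It gave a ratio of -0.67 and a rostral minus caudal difference of 1.02, where the table's probe gave 0.29. Neither probe could be tested between the parts.

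Tbr1, of early cortical projection neurons, could not be tested with the table's probe, which was above background in 3 sorted pools and on 2 arrays in the reference. A brighter probe named by accession was above background on every array. It gave a ratio of -1.70 (SE 0.20, adjusted p = 3.88e-05) and a rostral minus caudal difference of 1.84 (SE 0.41, adjusted p = 0.0273). Sim2, a relative of Sim1, lay close to the reference with the table's probe, with values of -0.18 to -0.03 over the 8 pools. Its mean ratio of -0.07 (SE 0.06) did not pass (adjusted p = 0.304), and with median centring it was 0.25. A second, dimmer probe of Sim2, named by accession, gave a ratio of -0.81 (adjusted p = 8.9e-05 in a fit over probes). It gave a rostral minus caudal difference of 0.98 (adjusted p = 0.0351), where the brighter one gave 0.05. With the brightest probe of either source, 14 of 30 tested members were called between the parts, 7 in each direction. Of all 18099 genes tested in that setting, 1145 were called.

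**Figure D4:**
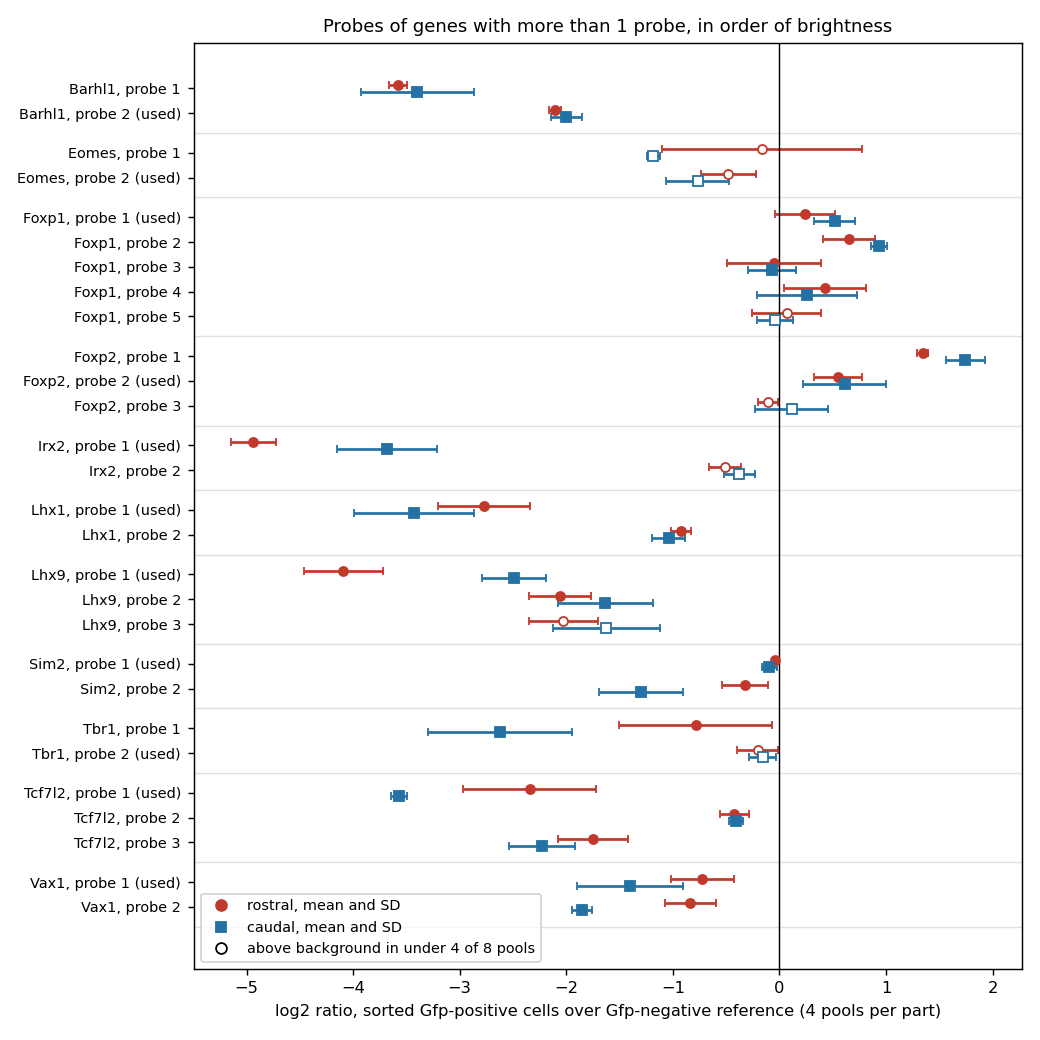
Mean and SD over 4 pools of the log2 ratio to the reference for each probe of the genes with more than 1 probe, rostral (circles) and caudal (squares), the brightest probe of each gene first. Open symbols mark probes above background in fewer than 4 of 8 pools, and "used" marks the probe of the authors' table that stands for the gene. The probes of Tbr1, Lhx9 and Tcf7l2 differ from each other in the distance between the parts.

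The levels in each channel are given as a description of the called members. Every array carried the same reference mixture, so alike reference levels follow from the design. The members were called on their ratios, so separate sorted-cell levels follow from that choice. For the 12 called members the normalized level in the sorted-cell channel differed by 0.68 to 3.63 on the log2 scale in size, and rostral and caudal arrays did not overlap for any of the 12. In the reference channel the same arrays differed by -0.07 to 0.11, and they overlapped for all 12. For Evx1 the sorted-cell channel means were 8.25 in rostral and 11.88 in caudal pools, and the reference means were 12.39 and 12.38. For 10 of the 12 even the higher part lay below the reference on average, the exceptions being Msx1 in caudal and Msx2 in rostral pools.

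**Figure D5:**
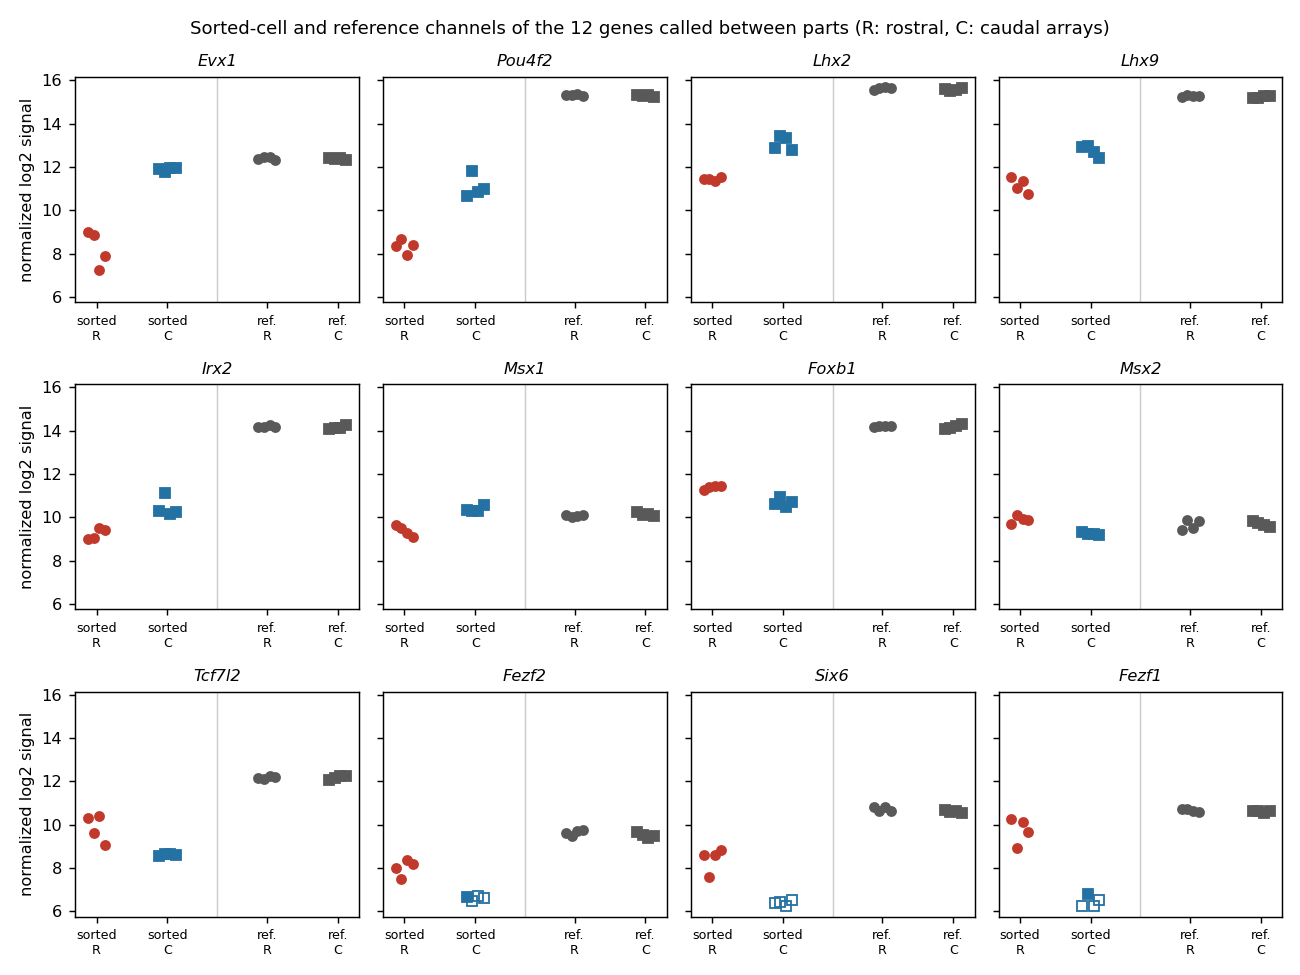
Normalized log2 signal of the 12 called members in the sorted-cell channel (left of each panel, red circles rostral, blue squares caudal) and in the reference channel (right, grey) on each of the 8 arrays; open symbols are not well above background. The sorted-cell levels separate by part in each panel, while the reference levels of the arrays overlap.

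Single pools shifted many members together. Caudal pool 2 was the highest of its part for 20 of the 32 members tested against the reference, among them all 4 LIM and all 4 Iroquois genes. Its median deviation from the mean of its part was 0.28 over the 29 members tested between parts and -0.01 over all genes. It also had the highest mean of the caudal pools for progenitor markers (-3.02), GABAergic markers (-2.49), oculomotor and motor markers (-0.69), hypothalamic markers (-2.53) and erythroid markers (-3.67). It had the lowest for pan-neuronal markers (0.33) and microglia markers (-0.73), with dopaminergic markers at 3.95. Rostral pool 3 was the highest of its part for 15 of the 32 members. Without caudal pool 2, 11 of the 29 members and 825 of all 18098 genes were called. The member count was the same without rostral pool 1 (1012 genes called) or 3 (849). It was also the same without caudal pool 1 (718 genes called) or 3 (846).

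Relatives outside the list are given by their counts. Of 30 paralogues, such as Lhx3 and Irx4, 24 could be tested between the parts, with 1 higher in rostral (Isl1, 0.65, SE 0.12, adjusted p = 0.0118) and 3 in caudal pools, and a median of 0.00. The 3 were Lhx4 (-1.97, SE 0.24, adjusted p = 0.0024), Irx4 (-0.85, SE 0.17, adjusted p = 0.0198) and Tcf7l1 (-0.60, SE 0.14, adjusted p = 0.0374). Against the reference 18 of 26 were lower and 4 higher. Lmx1a, a LIM factor of dopaminergic neurons themselves, stood at 3.39 (SE 0.03), on the other side of the reference from the 4 LIM members.

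Of 47 other regional transcription factors, 37 could be tested between the parts, with 11 higher in rostral and 6 in caudal pools. Of 38 tested against the reference, 33 were lower. Over all genes tested, 6.29% were called between the parts and 36.9% were lower than the reference. Gbx2 and Dlx1, counted among the 11, passed through their 4 rostral pools alone, so their count is no support for a difference. Prox1, among the 33, was tested through the reference channel alone. Nr2f2, an orphan nuclear receptor gene, was higher in rostral pools (1.67, SE 0.15, adjusted p = 0.000662). Tal2, of midbrain GABAergic neurons, was higher in caudal pools (-1.79, SE 0.16, adjusted p = 0.000662). This list shares genes with the marker lists, Nkx2-1 and Tal2 among them.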

How the data were processed

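Expression was measured in 8 pools on 2-colour arrays. The deposited scanner files hold spot intensities, median pixel values of spot and local background in each channel, which per the file headers the authors had extracted with Feature Extraction 10.7.3.1 of Agilent. The processed intensities in the same deposited files were background-subtracted and dye-normalized, per the file headers. The submitters' processing notes also name RMA, without saying what it was used for. The authors' table of the whole series gave only probe names, because its 8 value columns match no sample label. No coordinate was taken from the array design.

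Analysis used R 4.3.3, limma 3.58.1 and, to read files, the data.table package (version 1.17.8). Background was corrected with normexp (offset 50), and each array by loess with control and outlier spots at weight 0, giving log2 of green over red. Channel levels were taken after Aquantile. Genes were named by accession through RefSeq, then by the table's symbol, and the brightest probe stands for a gene. A gene was tested between the parts where its probe was well above background in at least 4 of 8 sorted pools, and against the reference where either channel was. Tests were lmFit and eBayes with an intensity trend, 2-sided and adjusted by Benjamini-Hochberg over all genes tested.

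The members and lists were chosen with earlier results of these data known. All 34 members are named, with full statistics for those called between the parts and for the 3 lowest and 3 highest ratios to the reference, and at most 4 genes of each other list, those with the smallest p. The other lists were dopaminergic, pan-neuronal, progenitor, GABAergic, glutamatergic, hypothalamic, motor, endothelial, erythroid and microglia markers, paralogues and other regional factors. Deviations of pools with the same replicate number correlated at -0.07 to 0.02 across genes, and those with other numbers at -0.097 to 0.106. The labels state no pairing by number, and such correlations cannot exclude one.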

Additional observations from a re-analysis of the deposited data

Results flagged for a closer look

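In 68 groups of 4 pools (34 genes in each part), no pool of any member stood far enough from the other 3 to pass Dixon's criterion for 4 values. Chance alone passes about 1 in 20 such groups.

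Msx1 and Msx2 had ratios of opposite sign in the parts. Msx1 lay below the reference in all 4 rostral pools and above it in all 4 caudal pools, with a rostral minus caudal difference of -0.92 on the log2 scale. Msx2 lay above the reference in all 4 rostral pools and below it in all 4 caudal pools, with a difference of 0.71. The difference itself passed limma's test for both (adjusted p = 0.0123 and 0.0143).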

How the results depend on the processing

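The count of 12 members called between the parts was 9 to 14 under the alternatives other than single slide rows. With a signal above background required on all 8 arrays, the members higher in rostral pools fell from 6 to 3, because Six6, Fezf1 and Fezf2 were no longer tested. Leaving out each pool gave 718 to 1012 genes called in all, in place of 1139, the lowest being 718 without caudal pool 1 and 751 without caudal pool 4. With replicate number as a block 723 genes were called, and 10 members, 5 in each direction, with Msx1 and Msx2 lost. With slide row as a block 12 members and 1020 genes were called. In the first slide row alone, which holds 2 pools of each part, limma called 0 genes and 0 members in either direction at an adjusted p below 0.05 (2382 genes and 14 members at an unadjusted p below 0.05). Within the second row it called 185 genes and 5 members, 2 higher in rostral and 3 in caudal pools. The sign of all 12 called differences was kept in every alternative that gave a value.

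Median centring in place of loess turned the ratio to the reference for Sim2 (0.25), Msx1 (0.093) and Msx2 (0.21). It moved the median of all genes from 0.00 to 0.13 and the calls from 6420 higher and 6853 lower to 8407 and 5262. The Feature Extraction processed signals gave 7285 and 6234. In each of these 27 members were called lower. The ratio of Msx1 lost its call in 6 further alternatives. The cause was not tested.

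Dim probes limit the sizes for Six6, Fezf1 and Fezf2 in caudal pools, for Foxp2 in the reference, and for the table's probes of the cortical genes.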

Other observations

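The lists below are described by counts alone. All 6 dopaminergic markers were higher than the reference, and 1 of them, Slc18a2, was higher in caudal pools (log2 rostral minus caudal -0.56, SE 0.09, limma adjusted p = 0.00778). Of 6 pan-neuronal markers 5 were higher than the reference and 1 lower, and Tubb3 was higher in caudal pools (-0.39, SE 0.05, adjusted p = 0.00189). Of 6 oculomotor and motor markers 5 were lower than the reference and 0 higher, and Isl1 was the 1 called between the parts. Of 4 tested endothelial markers 3 were lower than the reference, and all 6 erythroid markers were lower. Of 5 microglia markers 0 were called in either comparison, and their mean ratio ranged from -0.73 to 1.02 over the 8 pools.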
